A study of Mus musculus with 6 samples.

Results

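The mouse mitochondrial genome was described across 6 libraries of cultured vascular smooth muscle cells, gene by gene. Its genes were taken as the rows of the deposited count table that lie on the mitochondrial chromosome, which gave 30 of 23197 rows. These were 13 protein genes, 2 rRNA genes and 15 tRNA genes. GENCODE M21 lists 37 genes on this chromosome, 22 of them for tRNA, so 7 tRNA genes had no row. All 30 rows had the start, end and strand given there, and 17 rows without a symbol were named from it. The cells were primary mouse smooth muscle cells from a supplier, the contractile cells of the artery wall. They were transfected with small interfering RNA against Arid3a, the gene of a protein that binds AT-rich DNA, or with a negative control, and incubated for 24 h. There were 3 control libraries and 3 libraries labelled siArid3a, all from mRNA captured on beads from 1 µg of RNA. The labels number the siArid3a libraries without saying whether the numbers stand for different siRNAs, and they name neither separate cultures nor strain, sex or age of the mice. Every p-value is thus set against the spread between these libraries, which may be technical. Angiotensin II is described as a treatment of such cells, but not which libraries received it.

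Mitochondria keep a small circular genome of their own that encodes core subunits of the respiratory chain and ATP synthase, together with the rRNAs and tRNAs that translate them. Both strands are copied into long precursor RNAs, and excision of the tRNAs that lie between the larger genes frees the mRNAs and rRNAs. Mammalian mitochondrial mRNAs and rRNAs mostly carry short poly(A) tails, whereas a mature tRNA ends in CCA, so bead capture of poly(A) does not treat the classes alike. Pieces of mitochondrial DNA have also been copied into the nuclear chromosomes during evolution, where they are annotated as pseudogenes.

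Some of these nuclear copies are nearly identical to the mitochondrial gene, so 3 pairs are shown before any level. Sequences are from the GENCODE M21 transcripts on GRCm38, the assembly also called mm10, and run 5′ to 3′ on the strand of the gene. Capitals mark the bases that differ within a pair. The first pair is ND4L, a subunit gene of complex I (MT:9877-10170, plus strand), and its copy Gm10222 (chr1:24612407-24612700, minus strand), which had 0 differences in 294 bases.
ND4L: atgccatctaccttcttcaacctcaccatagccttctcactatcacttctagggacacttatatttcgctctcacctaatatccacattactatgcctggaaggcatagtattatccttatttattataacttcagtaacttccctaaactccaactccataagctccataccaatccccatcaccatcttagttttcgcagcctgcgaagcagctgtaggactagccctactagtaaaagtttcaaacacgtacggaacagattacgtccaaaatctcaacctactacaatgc
Gm10222: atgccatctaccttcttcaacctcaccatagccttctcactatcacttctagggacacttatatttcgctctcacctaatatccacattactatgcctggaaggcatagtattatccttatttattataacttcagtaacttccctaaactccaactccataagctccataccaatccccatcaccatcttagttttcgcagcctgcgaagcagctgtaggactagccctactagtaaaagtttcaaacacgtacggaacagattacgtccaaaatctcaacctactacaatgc
The second pair is the first 150 bases of ND3, another complex I subunit gene (MT:9459-9608, plus strand), and of its copy Gm28438 (chr1:24612970-24613119, minus strand), which had 1 difference.
ND3: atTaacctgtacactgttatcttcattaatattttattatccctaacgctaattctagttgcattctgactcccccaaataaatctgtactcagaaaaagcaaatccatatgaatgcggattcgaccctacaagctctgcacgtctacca
Gm28438: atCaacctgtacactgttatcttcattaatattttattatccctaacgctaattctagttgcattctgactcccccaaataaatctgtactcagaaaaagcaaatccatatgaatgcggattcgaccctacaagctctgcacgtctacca
The third pair is the first 120 bases of COX1, the catalytic subunit gene of cytochrome c oxidase (MT:5328-5447, plus strand), and of the copy Gm13340 (chr2:22589528-22589647, minus strand), which had 3 differences. Gm13340 stands for the more divergent copies.
COX1: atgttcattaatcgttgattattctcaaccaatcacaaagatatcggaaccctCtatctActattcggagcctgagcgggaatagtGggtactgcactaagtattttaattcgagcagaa
Gm13340: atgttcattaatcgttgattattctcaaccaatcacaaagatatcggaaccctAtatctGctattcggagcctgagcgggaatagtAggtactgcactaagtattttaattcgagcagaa

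Total gene counts ranged from 17029735 to 22799935 per library, and each control library had a siArid3a library of like depth. The shallowest pair was control 3 and siArid3a 2, the middle pair control 1 and siArid3a 3, and the deepest pair control 2 and siArid3a 1. Arid3a itself did not pass the test between the groups, with a log2 fold change of −0.03 (SE 0.13, edgeR adjusted p = 0.943) and overlapping values. Its counts were 375, 370 and 391 in the controls and 380, 367 and 376 in siArid3a, each in the order of libraries 1, 2 and 3, so directions here are those of libraries labelled siArid3a. Of 8 smooth muscle markers 6 had 10 or more counts in every library. Over all 6 libraries Acta2 had 64322 counts, Smtn 8351, Cnn1 3547 and Lmod1 593. Counts were low for Tagln (158), Myocd (146), Des (81) and Myh11, smooth muscle myosin heavy chain (30). Summed markers were 596.2 to 692.0 CPM, counts scaled to library size, in the controls and 602.8 to 740.0 in siArid3a for smooth muscle, 78.9 to 99.7 and 71.8 to 91.1 for fibroblasts, and 20.4 to 30.5 and 16.1 to 25.1 for endothelium. For macrophages the sums were 58.3 to 65.9 and 37.7 to 53.1 CPM, and for epithelium 48.3 to 53.4 and 34.0 to 39.9 CPM, so these sums were lower in siArid3a with no overlap between groups. Of all single genes tested, 10.4% had no overlap with siArid3a lower. For every cell type most of the sum came from 1 gene. This was Acta2 for smooth muscle, Pdgfra for fibroblasts (8604 counts over all 6 libraries) and Vwf for endothelium (2459 counts). It was Cd14 for macrophages (5557 counts) and Krt19 for epithelium (4600 counts). Of the 5 macrophage and 5 epithelial markers 3 and 2 had 10 or more counts in every library, while Adgre1 and Epcam, a defining marker of each, had 5 counts and 1 count over all 6. Their part in the results was not tested.

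Mitochondrial genes took between 2.37% and 3.23% of all gene counts, and nearly all of that went to the protein genes. In the order of libraries 1, 2 and 3, the controls gave 2.78%, 3.23% and 2.37%, and siArid3a gave 3.04%, 2.81% and 3.06%. The controls held both the highest and the lowest value, with the siArid3a libraries in between. The mean was 2.79% ± 0.429 in the controls and 2.97% ± 0.140 in siArid3a (SD, n = 3 each), a difference of 0.173 percentage points. The exact permutation test, two-sided, had p = 0.6, and 3 libraries against 3 cannot go below 0.1. In bulk RNA, fewer cells of a type, fewer mitochondria per cell and less RNA per mitochondrion cannot be told apart.

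The protein genes together held 2.58%, 2.96% and 2.23% of counts in the controls and 2.76%, 2.63% and 2.85% in siArid3a. The groups overlapped, with means of 2.59% ± 0.368 and 2.75% ± 0.110 (SD, n = 3; exact permutation p = 0.6). The rRNA genes held 0.193%, 0.257% and 0.139% in the controls and 0.263%, 0.167% and 0.200% in siArid3a, and here too the groups overlapped (0.196% ± 0.0587 and 0.210% ± 0.0488, SD, n = 3; exact permutation p = 0.7). The tRNA genes held 0.00887%, 0.0122% and 0.00700% in the controls and 0.0123%, 0.00866% and 0.0108% in siArid3a with overlap again (0.00936% ± 0.00264 and 0.0106% ± 0.00184, SD, n = 3; exact permutation p = 0.6). The classes varied by unequal amounts. The highest library was 1.33 times the lowest for protein genes, 1.89 times for rRNA and 1.76 times for tRNA. Counting error was small beside this: the widest 95% Wilson interval spanned 0.0152 points for the protein share, 0.00421 for rRNA and 0.000919 for tRNA. Reads without molecular identifiers are not independent molecules, so these intervals cover counting error alone.

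The 13 protein genes fell into 2 sets whose mean levels were at least 115-fold apart. Levels are given in RPKM, which scales counts by gene length and by the total gene counts of the library, as mean ± SD of all 6 libraries. COX1 was the most counted gene of the whole table. It held 1.26%, 1.37% and 1.104% of counts in the controls and 1.30%, 1.27% and 1.27% in siArid3a, and 44.0% of all mitochondrial counts. Its level was 8174 ± 566 RPKM, with library values from 7147 to 8879. CYTB, the cytochrome b subunit gene of complex III, followed at 3722 ± 392 RPKM, with 0.403%, 0.469% and 0.353% of counts in the controls and 0.427%, 0.427% and 0.475% in siArid3a. The COX1 and CYTB ranges did not overlap.

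**Figure D1:**
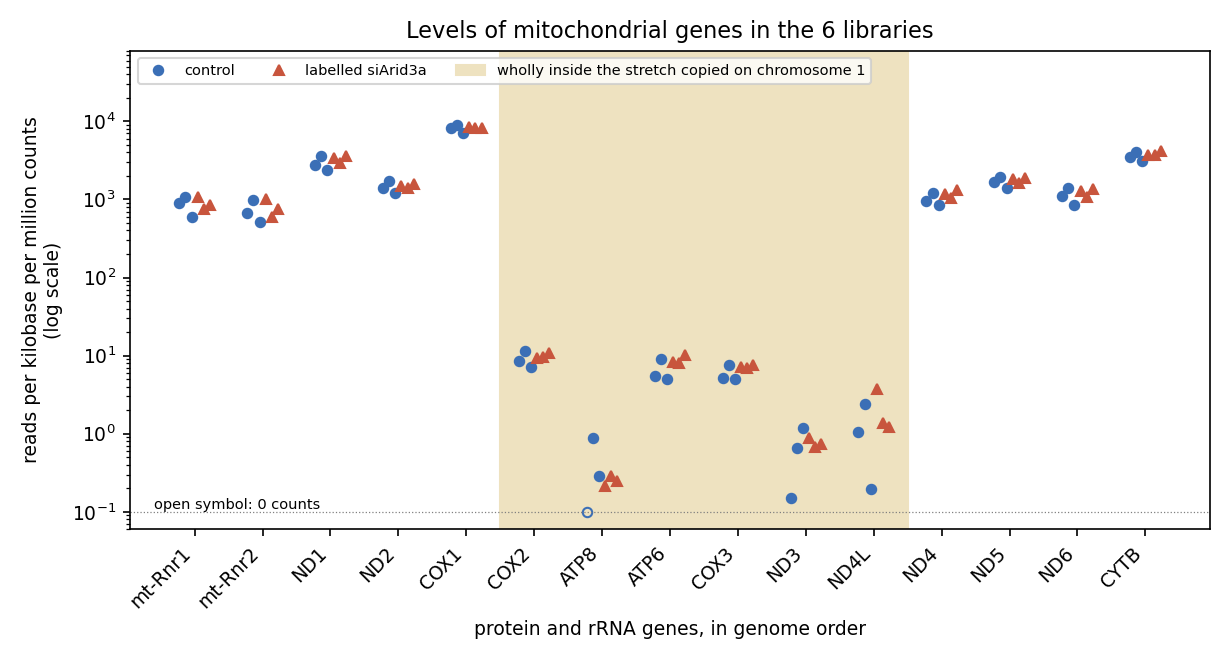
Level of each mitochondrial protein and rRNA gene in RPKM (log axis) in genome order, with 1 point per library, circles for control and triangles for siArid3a; the shaded genes lie wholly inside a stretch copied on chromosome 1. The 7 protein genes outside the shading lie between 840.5 and 8879 RPKM in all libraries, while the 6 inside it lie between 0 and 11.5.

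Complex I, the NADH dehydrogenase that feeds electrons into the chain, supplied the other 5 abundant genes. ND1 reached 3119 ± 508 RPKM, with library values of 2775, 3605 and 2363 in the controls and 3389, 2954 and 3630 in siArid3a. ND5 followed at 1723 ± 194 RPKM, below ND1 in 6 of 6 libraries and with no overlap of their ranges. ND2, at 1467 ± 175 RPKM, overlapped with ND5 in range but was below it in 6 of 6 libraries. ND6, the single protein gene on the minus strand, had 1176 ± 210 RPKM, with values of 1103, 1389 and 840.5 in the controls and 1286, 1075 and 1364 in siArid3a. ND4 had 1096 ± 172 RPKM, and its range overlapped with that of ND6, which was higher in 5 of 6 libraries. The strand setting of the counting is not given in the sources used here, so reads of both strands may be counted together at ND6, as at any gene here.

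The other 6 protein genes were listed at almost no level, although their products belong to the same complexes. COX2 and COX3, the other core subunits of cytochrome c oxidase, had 9.50 ± 1.56 and 6.58 ± 1.16 RPKM. ATP6, a proton channel subunit gene of ATP synthase, had 7.68 ± 2.02 RPKM. These 3 overlapped in range. ND4L had 1.66 ± 1.23 RPKM, ND3 had 0.711 ± 0.337 and ATP8, the second ATP synthase subunit gene, had 0.321 ± 0.296. In counts this was 1, 5 and 7 reads for ND3 in the controls and 7, 4 and 5 in siArid3a. For ATP8 it was 0, 4 and 1 reads in the controls and 1 in each siArid3a library, where a count of 0 in control 1 allows up to 0.771 RPKM (3 counts). Together the 6 genes held 2109 counts, or 0.0616% of the mitochondrial total, and ND4, the lowest of the abundant genes, was 115-fold above COX2.

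These 6 genes are next to each other on the mitochondrial genome, and the stretch they lie in has a nearly identical copy on chromosome 1. The count table holds 7 rows of that copy, at chr1:24611535-24616197 on the minus strand, each at least 99% identical to a mitochondrial gene. In order, they match parts of MT:6390-11042, a stretch of 4653 bases, and differed at 2 of 4140 aligned bases. The chromosome 1 bases between the matched parts were not examined. The 6 low protein genes lie wholly inside the stretch. COX1 and ND4 lie partly inside, with 483 bases of COX1 (31.3%) and 876 bases of ND4 (63.6%) copied at 99% identity or more. ND1, ND2, ND5, ND6 and CYTB lie outside. At 95% identity, copies elsewhere in the nuclear genome also counted, and 100% of COX1, 49.1% of ND2 and 52.3% of ND5 were copied.

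**Figure D2:**
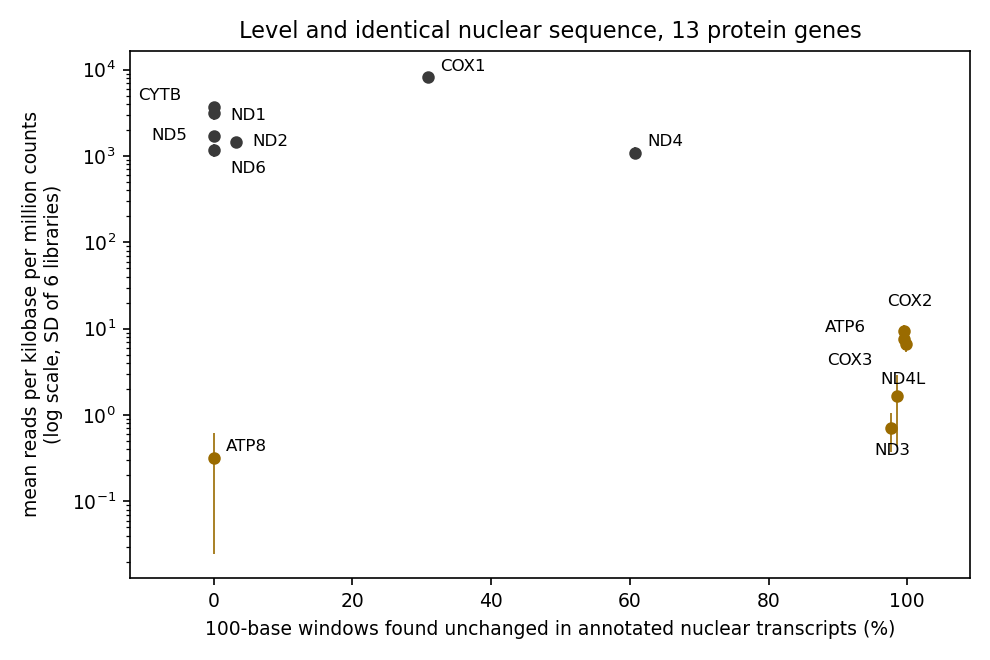
Level of the 13 protein genes (mean of 6 libraries in RPKM, log axis, bars the SD) against the share of their 100-base windows, in percent, that are found without a mismatch in an annotated nuclear transcript. COX2, ATP6, COX3, ND4L and ND3 sit at 97.6% to 99.9% with levels under 10 RPKM, and ATP8 is the low gene without such windows.

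The share of 100-base windows that also occur, letter for letter, in a nuclear transcript was 99.5% for COX2 and ATP6, 99.9% for COX3, 97.6% for ND3 and 98.5% for ND4L. It was 60.8% for ND4, 30.8% for COX1, 3.19% for ND2 and 0 for ND1, ND5, ND6, CYTB and both rRNA genes. ATP8 stood apart, with a low level and 0 such windows. Its last 43 bases overlap ATP6 and lie in the part matched by the ATP6 copy, which is too short for a 100-base window. The rest of ATP8 lies between the parts matched by the copies of COX2 and ATP6, and the chromosome 1 sequence there was not examined. Reads that fit 2 places can be counted in 1, both or neither. How the authors counted them is not given in the sources used here, and its part in these levels was not tested. The levels of the 6 genes are therefore uncertain as measures of their RNA. If bases copied at 99% identity or more gave no counts, levels would be those over the remaining bases. They would be 11891 ± 823 RPKM for COX1 (1062 bases) and 3008 ± 473 RPKM for ND4 (502 bases), which would place ND4 close to ND1.

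The chromosome 1 copies of COX2, ATP6, COX3, ND3 and ND4L had more counts than the genes they match. Gm28661 had 1109 counts over the 6 libraries against 772 for COX2, and Gm10925 had 923 against 624 for ATP6. Gm28437 had 866 counts against 614 for COX3. The 2 small complex I genes fell further behind their copies. Gm28438 had 203, 253 and 128 counts in the controls and 334, 170 and 256 in siArid3a, or 1344 in all against 29 for ND3. Gm10222, identical to ND4L in the sequence shown, had 348 counts against 62. The order turned for the genes partly inside the stretch, where Gm29216 had 280 counts against 1494550 for COX1, and Gm28439 had 214 against 179590 for ND4. The 7 copies summed to 0.124 to 0.163 counts per 100 mitochondrial counts in the 6 libraries. None of the 7 passed the edgeR test between groups (0 of 7, adjusted p from 0.338 to 0.920), where 0.0% of all genes tested passed. The groups overlapped for all 7, whereas they did not overlap in 20.0% of all genes tested. At 95% identity another 4 pseudogenes matched, Gm13339, Gm13340, Gm13341 and Gm4076, and the table lists none of these 4.

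The rRNA genes, mt-Rnr1 of the small and mt-Rnr2 of the large mitochondrial ribosomal subunit, had lower mean levels in RPKM than every abundant protein gene. The level of mt-Rnr1 was 896.1, 1070 and 598.7 RPKM in the controls and 1083, 751.9 and 837.7 in siArid3a. That of mt-Rnr2 was 679.6, 977.0 and 519.9 RPKM in the controls and 1009, 602.1 and 757.6 in siArid3a. The highest values of both were in control 2 and siArid3a 1, the deepest libraries, and the lowest in control 3 and siArid3a 2, the shallowest. Over all 6 libraries the levels were 873 ± 187 and 758 ± 199 RPKM, with mt-Rnr1 higher in 6 of 6 libraries and overlapping ranges. For every 100 counts in protein genes, the rRNA genes had 7.49, 8.67 and 6.26 in the controls and 9.53, 6.35 and 7.02 in siArid3a.

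Among the tRNA genes, 3 stood far above the rest, and all 3 lie on the minus strand. That strand holds 7 of the 15 listed tRNA genes, and the others on it were low. Over the 6 libraries mt-Ty had 391 counts, mt-Te 303, mt-Ta 72 and mt-Tq 4. The 3 abundant genes are those for the proline tRNA (mt-Tp, MT:15356-15422), the asparagine tRNA (mt-Tn, MT:5089-5159) and the cysteine tRNA (mt-Tc, MT:5192-5257). Their sequences are shown because these genes carry most tRNA counts, with the anticodon in capitals.
mt-Tp: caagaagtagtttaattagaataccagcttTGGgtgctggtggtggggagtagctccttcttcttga
mt-Tn: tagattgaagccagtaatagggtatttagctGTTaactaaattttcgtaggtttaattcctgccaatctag
mt-Tc: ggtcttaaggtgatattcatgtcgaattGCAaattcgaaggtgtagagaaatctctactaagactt
Counts of mt-Tp were 483, 927 and 446 in the controls and 1053, 518 and 807 in siArid3a. Counts of mt-Tn were 598, 956 and 400 in the controls and 866, 396 and 589 in siArid3a, and those of mt-Tc 307, 452 and 190 and 383, 233 and 292. For each of the 3 the groups overlapped, and control 2 or siArid3a 1 was the highest library.

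**Figure D3:**
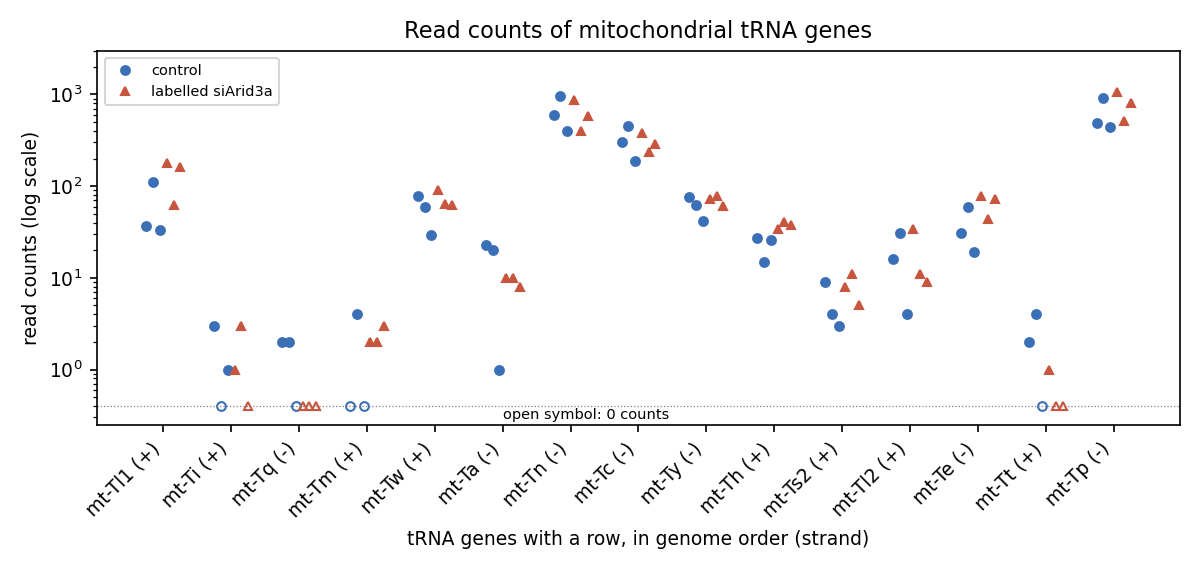
Read counts of the 15 listed tRNA genes on a log axis in genome order, with 1 point per library, circles for control and triangles for siArid3a; open symbols mark a count of 0 and the sign in brackets the strand. The genes mt-Tp, mt-Tn and mt-Tc have 190 counts or more in every library, and mt-Tl1, the next, at most 178.

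In RPKM, mt-Tp had 525 ± 134, mt-Tn 444 ± 111 and mt-Tc 235 ± 47.2 over the 6 libraries. The ranges of mt-Tp and mt-Tn overlapped, while mt-Tc lay below both. The next genes were mt-Tl1, a leucine tRNA gene just after mt-Rnr2, at 63.8 ± 37.1 RPKM and mt-Ty, the tyrosine tRNA gene, at 49.98 ± 11.8, whose ranges overlapped. At the other end 4 genes, mt-Ti, mt-Tq, mt-Tm and mt-Tt, had fewer than 10 counts in every library and 0 in at least 1. The top 3 differ from the other listed tRNA genes in their surroundings. Between mt-Tn and mt-Tc lie 32 bases with no annotated gene, and mt-Tp borders the control region, which holds no annotated gene. The gaps beside the other listed tRNA genes were at most 5 bases. On the circular genome mt-Tf borders the control region from its other end, and mt-Tf had no row. Whether surroundings bear on the counts was not tested. These tRNA genes are 66 to 71 bases long, and neither the read length nor how reads across 2 genes were counted is given in the sources used here. The 7 tRNA genes without a row were mt-Tf, mt-Tv, mt-Ts1, mt-Td, mt-Tk, mt-Tg and mt-Tr. Of these, 5 are all of the tRNA genes inside the stretch spanned by the chromosome 1 copies, while 2 of the 17 outside it had no row. The search covered annotated transcripts only and found no copy of these 5 genes themselves. The reason for the missing rows was not tested.

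The shares of rRNA and tRNA followed library depth closely, and that of the protein genes less so. In both groups the rRNA share was in the order of depth. It went from 0.139% through 0.193% to 0.257% in the controls and from 0.167% through 0.200% to 0.263% in siArid3a. Across the 6 libraries Pearson's r with total gene counts was 0.98 for the rRNA share (exact permutation p = 0.00556, 0.0111 after Benjamini-Hochberg adjustment over the 4 shares tested). Spearman's rho was 0.943 (exact permutation p = 0.0167, adjusted 0.0333). For the tRNA share r was 0.94, with the same p-values and rho. For the protein share r was 0.73 (exact permutation p = 0.0861, adjusted 0.0861) with a rho of 0.657 (exact permutation p = 0.175, adjusted 0.175), and for all mitochondrial counts r was 0.79 (exact permutation p = 0.0667, adjusted 0.0861) with the same rho.

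**Figure D4:**
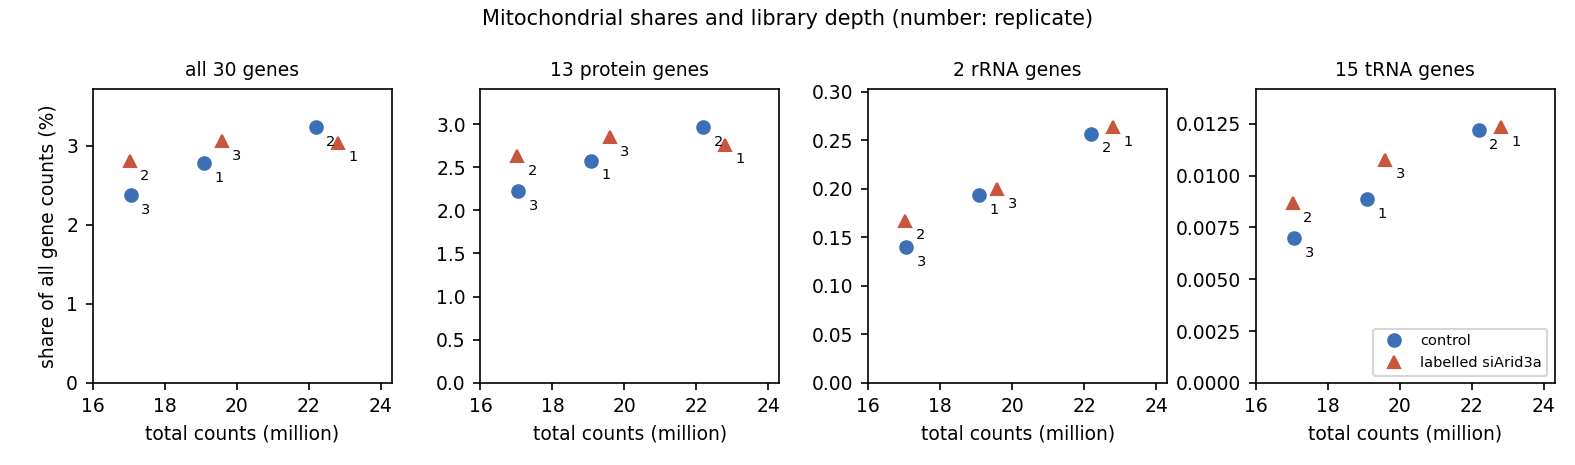
Share of all gene counts in percent held by all mitochondrial genes and by their protein, rRNA and tRNA genes against the total gene counts of the library, 1 point per library with its replicate number, circles for control and triangles for siArid3a. The rRNA share rises from 0.139% to 0.263% from the shallow to the deep libraries of both groups.

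Without the 2 libraries farthest from the median depth, siArid3a 1 and control 2, r was 0.908 for rRNA and 0.810 for tRNA (exact permutation p = 0.167 each, n = 4), so at that size neither relation passed. It was 0.690 for protein genes and 0.719 for all (exact permutation p = 0.5 and 0.333, n = 4). Each group holds 3 libraries, too few for a value within the group. Of the 22 mitochondrial genes tested, 20 had an r with depth above 0 with a median of 0.67, while 47.3% of 13212 nuclear genes tested were above 0 with a median of −0.04. The highest was mt-Rnr2 at 0.99 and the lowest mt-Th, the histidine tRNA gene, at −0.64. These per-gene values are descriptions over the same 6 libraries. What differs between deep and shallow libraries apart from depth was not tested.

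Compared at like depth, the share of all mitochondrial counts was higher in siArid3a by 0.433 points in the shallowest pair and by 0.281 in the middle pair. In the deepest pair it was lower, with a difference of −0.194 points. The rRNA share was higher in siArid3a in 3 of 3 pairs, by 0.0276, 0.00677 and 0.00637 points. Depth was not equal within the pairs, and the rRNA share rose with depth. The siArid3a library was deeper in the middle pair (19585920 against 19079970 counts) and in the deepest pair (22799935 against 22189166). In the shallowest pair it was the shallower library (17029735 against 17057300). How much of the rRNA differences went with depth was not tested. There is 1 library per group at each depth, so the differences in share have no replicate error of their own.

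The comparison of siArid3a with control asked whether expression of the mitochondrial genome differed after transfection with the siRNA. No mitochondrial gene passed the edgeR quasi-likelihood test, which does not show that none changed. Most had slightly higher values in the libraries labelled siArid3a. Of the 30 genes 22 passed the filter on low counts, and 0 of 22 had an adjusted p under 0.05, as did 0.0% of all 13234 genes tested. The smallest edgeR adjusted p was 0.168. Without adjustment, 2 of 22 had a p under 0.05, where 14.9% of all genes tested had such a p. Both were higher in siArid3a, a direction that 7.36% of all genes tested took at that p, against 7.57% in the other. DESeq2 also called 0, with an adjusted p for 19 of the 22 (not for mt-Ta, mt-Th and mt-Tl2), against 1.69% of all genes, and limma-voom 0, against 0.0%. The groups overlapped in all 22, whereas they did not overlap in 20.0% of all genes tested. Log2 fold changes were above 0 for 19 of 22 with a median of 0.15, against 48.9% above 0 and a median of −0.01 over all genes tested. That median was 0.03 without control 3 and 0.37 without control 2, the libraries with the lowest and highest mitochondrial share, and 13 of 23 genes tested were above 0 without control 3.

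**Figure D5:**
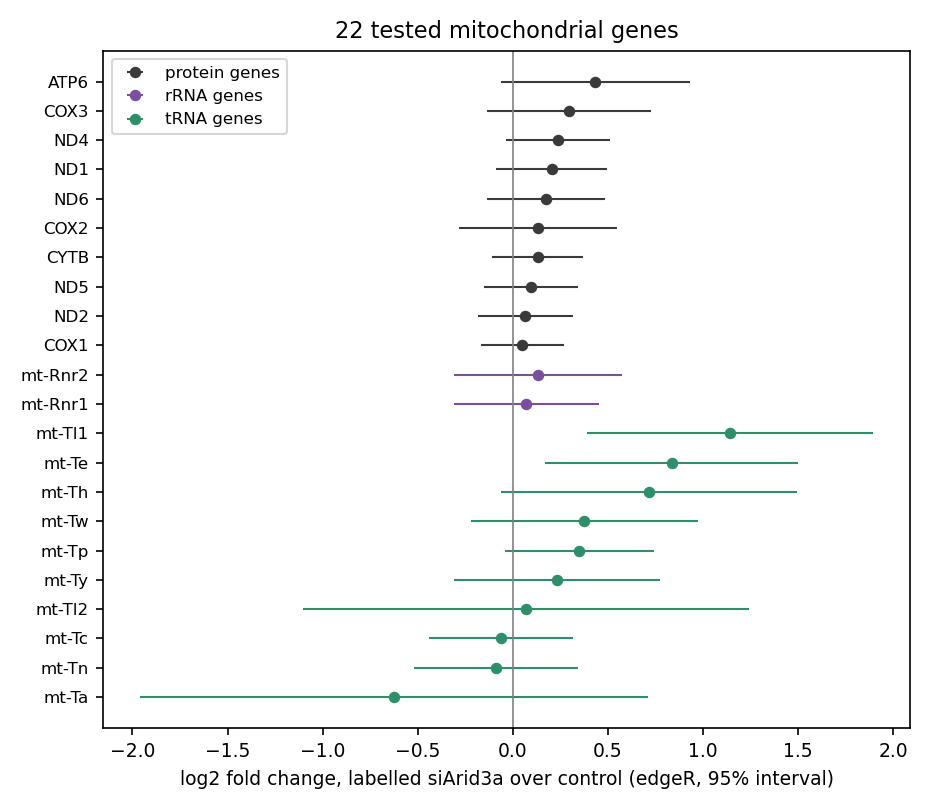
Log2 fold change of siArid3a over control from edgeR for the 22 mitochondrial genes tested, with 95% intervals, grouped as protein, rRNA and tRNA genes. The intervals of all protein and rRNA genes include 0, and those of mt-Tl1 and mt-Te do not before adjustment.

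Among the protein genes the log2 fold changes were between 0.05 and 0.43, and 0 of 10 passed. COX1 had 12562, 13798 and 10907 CPM in the controls and 12879, 12673 and 13059 CPM in siArid3a, so the siArid3a libraries lay within the control range. This made a log2 fold change of 0.05 (SE 0.10, 95% interval −0.17 to 0.27, edgeR adjusted p = 0.864). CYTB had 4008, 4721 and 3489 CPM in the controls and 4246, 4254 and 4885 in siArid3a, with a log2 fold change of 0.13 (SE 0.11, edgeR adjusted p = 0.617). The complex I genes ND1, ND2, ND4, ND5 and ND6 had log2 fold changes of 0.21, 0.07, 0.24, 0.09 and 0.18. These values moved by over 1.5 times with single libraries left out for ND1, ND4 and ND6. Without control 3 ND1 had 0.07, ND4 0.12 and ND6 0.01, and without control 2 they had 0.40, 0.41 and 0.38. ND2 and ND5 turned to −0.05 and −0.02 without control 3, as did COX1, to −0.03. Of the complex I genes ND4 had the smallest edgeR adjusted p, 0.393, with 1321, 1689 and 1157 CPM in the controls and 1595, 1452 and 1870 in siArid3a. Among the genes inside the copied stretch, ATP6 had the highest value at 0.43 (SE 0.23, edgeR adjusted p = 0.398), COX3 had 0.30 and COX2 0.13, while ND3, ND4L and ATP8 were too low to be tested. The rRNA genes had log2 fold changes of 0.07 (SE 0.18) for mt-Rnr1 and 0.13 (SE 0.20) for mt-Rnr2, with edgeR adjusted p of 0.892 and 0.806.

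The widest spread was among the 10 tRNA genes tested, with 7 above 0 and log2 fold changes from −0.63 for mt-Ta, the alanine tRNA gene, to 1.14 for mt-Tl1. The mt-Ta value (SE 0.63) rests on 23, 20 and 1 counts in the controls and 10, 10 and 8 in siArid3a. For mt-Ta limma-voom gave a log2 fold change of 0.02. Counts of mt-Tl1 were 37, 112 and 33 in the controls and 178, 63 and 162 in siArid3a. The groups overlapped, since siArid3a 2 lay below control 2. In CPM it had 2.97 ± 1.82 and 6.65 ± 2.60 (SD, n = 3), with an SE of 0.35, a 95% interval of 0.39 to 1.90 and an edgeR adjusted p of 0.168. With library depth as a second term the log2 fold change was 1.13 and the edgeR adjusted p 0.0471, the single mitochondrial gene called in that fit. Without control 2 it was 1.80, and edgeR then called mt-Tl1 and mt-Tp. The other gene at an unadjusted p under 0.05, mt-Te, the glutamate tRNA gene, had 31, 59 and 19 counts in the controls and 78, 44 and 72 in siArid3a (log2 fold change 0.84, SE 0.31, edgeR adjusted p = 0.227). Of the abundant tRNA genes, mt-Tp had 0.35 (SE 0.18), mt-Tn −0.09 (SE 0.20) and mt-Tc −0.06 (SE 0.18), with edgeR adjusted p of 0.386, 0.882 and 0.909, and mt-Ty had 0.23 (SE 0.25, edgeR adjusted p = 0.709).

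A list of 59 nuclear genes tested covered mainly replication of the mitochondrial genome and transcription, processing and translation of its RNA, and 0 passed. In that list 38 had log2 fold changes above 0, with a median of 0.04, against 48.9% above 0 and a median of −0.01 over all genes tested. An unadjusted p under 0.05 was found for 10 of the 59, a share close to the 14.9% of all genes tested. In 7 the groups did not overlap with siArid3a higher, against 9.66% of all genes tested, and in 1 with siArid3a lower, against 10.4%. Lrpprc, whose protein binds and stabilises mitochondrial mRNAs, had 225.2, 238.5 and 237.8 CPM in the controls and 272.8, 275.6 and 332.9 CPM in siArid3a, with no overlap. The log2 fold change of Lrpprc came to 0.33 (SE 0.09, edgeR adjusted p = 0.127). DESeq2 called it (adjusted p = 0.0307) as the single member of the list, which at 1 of 59 is the share it called over all genes tested (1.69%). The next 3 by p were Pnpt1, the mitochondrial polynucleotide phosphorylase gene, at 0.29 (SE 0.09), Trnt1, the gene for the enzyme that adds CCA to tRNAs, at 0.30 (SE 0.10), and Trmt10c, a subunit gene of mitochondrial RNase P, at 0.30 (SE 0.11), with edgeR adjusted p of 0.159, 0.182 and 0.211. Of the transcription machinery, Tfam, which packages and helps transcribe the genome, had 0.21 (SE 0.09), Tfb2m, an initiation factor gene, 0.22 (SE 0.11) and Polrmt, the mitochondrial RNA polymerase gene, −0.05 (SE 0.10), with edgeR adjusted p of 0.287, 0.352 and 0.865. Slirp, the gene of the partner protein of Lrpprc, had 0.05 (SE 0.19, edgeR adjusted p = 0.932), but only 2.19% of its exonic sequence is free of overlap with another gene, so its counts are uncertain.

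Nuclear subunit genes of the same complexes were read from a second list of 44 genes tested, with 19 above 0, 25 below and 0 called. The median log2 fold change was −0.02, against −0.01 over all genes tested. It turned with 1 library left out, to 0.05 without control 2 and 0.01 without siArid3a 2, and was −0.09 without control 3. An unadjusted p under 0.05 was found for 2 of the 44, where 14.9% of all genes tested had one. The groups did not overlap for 2 genes, with siArid3a lower in both, against 10.4% of all genes tested in that direction. These were Ndufv1, a complex I subunit gene (log2 fold change −0.11, SE 0.07, edgeR adjusted p = 0.515), and Atp5a1, an ATP synthase subunit gene (log2 fold change −0.14, SE 0.08, edgeR adjusted p = 0.429). By comparison, the 10 mitochondrial protein genes tested had a median of 0.15. The ATP synthase subunit gene Atp5k had 24.99, 34.6 and 20.3 CPM in the controls and 15.7, 18.0 and 23.8 in siArid3a, a log2 fold change of −0.49 (SE 0.18, edgeR adjusted p = 0.223). The complex I subunit gene Ndufa1 had −0.24 (SE 0.10, edgeR adjusted p = 0.292). The cytochrome c oxidase subunit genes Cox5a and Cox7a2 had 0.17 (SE 0.09) and −0.24 (SE 0.13), with edgeR adjusted p of 0.384 and 0.409. The groups overlapped for these 4, the smallest by p in the list. The difference between the medians of the 2 sets of subunit genes was not tested.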

How the data were processed

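RNA of 6 libraries, 3 control and 3 siArid3a, was sequenced, and the authors deposited raw whole-number read counts per gene with positions and lengths. Per the submitters' processing notes, the aligner was STAR 2.7.3a, the build mm10 and the counter featureCounts. Its annotation, strand setting and treatment of reads that fit several places were not given in the sources used here. The deposited length equals the whole gene span in all 23197 rows, which for mitochondrial genes, without introns, is the transcript. No row had 0 counts in all libraries (0 rows).

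Shares are percent of all gene counts in a library. RPKM divides counts by the deposited length and the library total, and CPM by the TMM-scaled total, except in the marker sums, which use the plain total. Genes kept by filterByExpr of edgeR 4.0.16 in R 4.3.3 (13234) were tested by its quasi-likelihood test (TMM, robust, group only, two-sided), with Benjamini-Hochberg adjustment over all of them and a threshold of 0.05. Nuclear copies were searched with blastn 2.17.0 among GENCODE M21 transcripts, not in a genome, at 95% or 99% identity over at least 100 bases. Exact permutation tests used scipy 1.17.1 in Python 3.11.15. The edgeR fit was tested on simulated counts with 200 changed genes. Alternatives were other scalings, DESeq2 1.42.0, limma-voom 3.58.1, other count filters, a depth term, a replicate block and each library left out. Levels over length without a copy of at least 99% identity and windows of 50 and 150 bases were added after seeing the data.

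The members and both nuclear lists were chosen with earlier results of these data known. Named are every mitochondrial protein and rRNA gene, the 5 tRNA genes with the highest mean share, the 4 smallest p of each list, Polrmt, Tfam, Tfb2m, Lrpprc, Slirp, Arid3a and the nuclear copies with the highest counts. The other tRNA genes, Gm28439, Ndufv1 and Atp5a1 were named after their values were seen. Pairs of libraries within a group had a chi-square of counts per degree of freedom of 5.72 to 20.2 over all genes, more than sampling noise gives. Each library was counted as 1 sample, although this does not show that they came from separate cultures.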

Additional observations from a re-analysis of the deposited data

How the results depend on the processing

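Over all genes edgeR called 0, DESeq2 223, edgeR without a filter on low counts 439 and with library depth as a term 143. Leaving out each library in turn gave 0 to 135. Mitochondrial genes called were 0, but 1 without the filter and 1 with the depth term (mt-Tl1 in both), and 0 to 2 with 1 library left out, the 2 being mt-Tl1 and mt-Tp without control 2. Of the nuclear replication and expression genes 0 were called, 1 by DESeq2 (Lrpprc) and 2 without the filter (Lrpprc and Trnt1). In every fit that left out 1 library 0 were called. Of the nuclear partners 0 were called, 1 without the filter (Atp5k), and 0 to 1 with 1 library left out (Cox7a2 without control 3). The differences in share turned sign in some fits that left out 1 library: all mitochondrial counts ranged from −0.0371 to 0.392 points, protein genes from −0.0222 to 0.345 and rRNA from −0.0149 to 0.0438, with the lowest values without control 3 and an rRNA value of −0.0130 without siArid3a 1. The tRNA difference stayed above 0 (0.0000481 to 0.00265). Log2 fold changes that turned sign when 1 library was left out ranged from −0.133 to 0.278 for mt-Rnr1, −0.0688 to 0.423 for mt-Rnr2, −0.0505 to 0.224 for ND2, −0.0338 to 0.138 for COX1, −0.0160 to 0.355 for COX2, −0.0232 to 0.230 for ND5, −0.277 to 0.182 for mt-Tn, −0.259 to 0.178 for mt-Tc, −0.128 to 0.0841 for Arid3a, −0.126 to 0.0660 for Polrmt and −0.123 to 0.151 for Slirp. Of these, all but mt-Tn and mt-Tc turned without control 3, the rRNA genes, Arid3a and Slirp also without siArid3a 1, and mt-Tn and mt-Tc without control 2 and without siArid3a 2. Those of other mitochondrial genes stayed above 0 but moved by over 1.5 times, from 0.0704 to 0.401 for ND1, 0.123 to 0.408 for ND4, 0.00598 to 0.381 for ND6, 0.0323 to 0.256 for CYTB, 0.274 to 0.781 for ATP6, 0.189 to 0.530 for COX3, 0.217 to 0.643 for mt-Tp, 0.0470 to 0.459 for mt-Ty and 0.904 to 1.80 for mt-Tl1. The cause was not tested. The correlation of the mitochondrial share with depth was 0.712 to 0.860 with 1 library left out. Over length without a copy of at least 99% identity, added after seeing the data, the level of COX1 was 11891 RPKM and that of ND4 3008. Same-numbered libraries did not deviate together (correlations of 0.0296, −0.179 and −0.0848). Deviations from means of 3 libraries are too constrained to exclude a pairing by number. With a replicate block edgeR called 0 genes over all and 0 mitochondrial genes, whose median log2 fold change was 0.18. The other scalings (RLE, upper quartile, library size, nuclear genes only), limma-voom, the stricter filter and the fit without the robust option also called 0 mitochondrial genes. Genes with under 10 counts in every library, ND3, ATP8 and 4 of the tRNA genes, are at the limit of this depth.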
